A study of Saccharomyces cerevisiae with 6 samples.

Results

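The phosphate starvation genes described here are 10 genes of the phosphate regulon of budding yeast, out of 6225 gene identifiers on the array. They were chosen by name, as the probes whose systematic name is the reading frame of PHO5, PHO8, PHO11, PHO12, PHO84, PHO89, PHM6, SPL2, VTC1 or VTC3. All 10 were found, with 1 probe each. The glycolaldehyde group was Saccharomyces cerevisiae BY4743 given 10 mM glycolaldehyde, a small reactive hydroxyaldehyde, and kept without shaking for 4 h in synthetic glucose medium (2%) at 30 °C. The untreated group was the same strain grown alike without the aldehyde, and each group had 3 samples from independent starter cultures, each on its own single-colour array. Both groups carry the marker deletions of BY4743: the probes of LEU2, URA3 and HIS3 were well above background on 0 of 6 arrays. The labels call the cells haploid, although BY4743 is known as a diploid. Probes of all 12 marker genes of mating type or haploid cells were well above background on 6 of 6 arrays. Between 5929 and 6070 of all 6256 probes were so on each array, so this count cannot tell ploidy or mating type. Ploidy was not tested further. The labels also name both anaerobic growth and static culture, so the oxygen supply is unclear. The phosphate content of the medium is not stated in the labels.

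When phosphate is plentiful, the cyclin Pho80 and the kinase Pho85 keep the transcription factor Pho4 phosphorylated and out of the nucleus. When phosphate runs low, the inhibitor Pho81 blocks that kinase, and Pho4 with its partner Pho2 switches on the genes of phosphate uptake, scavenging and storage. These include the secreted acid phosphatases, the high-affinity transporters, and the VTC complex that builds polyphosphate at the vacuole.

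Array and sample are matched differently in the deposited records. The authors' value table equals the scanner files probe by probe, but for 3 of the 6 samples the matching scanner file is attached to a different sample, and 2 arrays change group between the records. The values below follow the value table and the sample titles, and the treatment entries of the labels match the titles. The free-text descriptions state the opposite treatment for every sample. Every rise and fall below rests on the titles: with the descriptions each sign would turn and each size would stay, so that the 5 genes that fell would be 5 that rose. Results on the 4 arrays on which both records give the same group, and with the scanner files as attached, are given further on. Arrays were scanned on 2 days, with replicates 1 and 2 of both groups on the first and replicate 3 of both groups on the second. Replicates 1 and 2 lay closer together (SD of log2 differences 0.105 with glycolaldehyde and 0.0979 untreated) than either lay to replicate 3 (0.181 to 0.21). Between 5929 and 6070 of 6256 probes were well above background per array. With 3 arrays per group, precision is limited throughout.

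The comparison asks whether transcripts of the phosphate regulon differed between glycolaldehyde-treated and untreated cells. Of the 10 genes 5 fell, 0 rose and 5 did not pass limma's test at an adjusted p under 0.05. PHM6 fell 2.18-fold, the transporter genes PHO84 and PHO89 and the transport regulator gene SPL2 fell between 1.32-fold and 1.35-fold, and the acid phosphatase gene PHO5 fell 1.14-fold. PHO8, PHO11, PHO12, VTC1 and VTC3 did not pass. Over all 5944 genes tested 23.5% fell, 29.6% rose and 53.1% changed in either direction. In RNA from whole cultures, fewer cells expressing a gene and less RNA per cell cannot be told apart. The median log2 change of the 10 genes was -0.19, against 0.032 over all genes tested. With the replicate number as a block 6 of the 10 fell, 1 rose and 3 did not pass, where 29.1% of all genes fell and 36.6% rose. All 420 spots of the 10 genes were well above background, 5 of them were marked as outliers, and the 7 spots of a gene on 1 array had a coefficient of variation between 1.43% and 12.8% (median 3.72%).

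**Figure D1:**
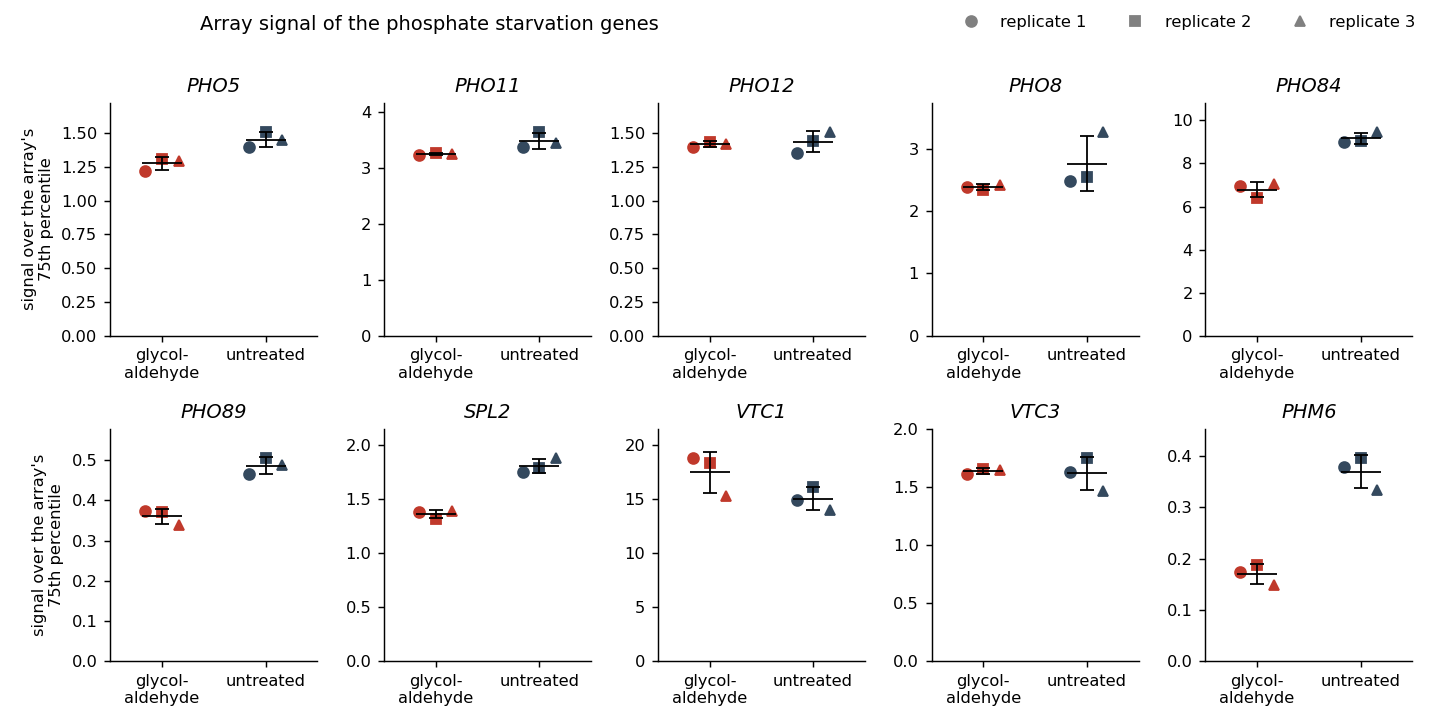
Signal of each phosphate starvation gene on each array, relative to that array's 75th percentile (vertical axes start at 0 and differ between genes). Red points are the 3 glycolaldehyde samples and dark points the 3 untreated samples, black bars are the mean ± SD, and marker shapes are replicate numbers; PHM6, PHO84, PHO89 and SPL2 show the widest separation of the groups.

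Signals are given relative to each array's 75th percentile, so that 1 is a signal equal to that percentile. Pho84 is the high-affinity proton-coupled phosphate transporter of the plasma membrane. Its gene had a relative signal of 6.95, 6.39 and 7.02 in glycolaldehyde replicates 1 to 3, against 9.01, 9.03 and 9.46 in untreated replicates 1 to 3. Every glycolaldehyde array lay below every untreated array. The log2 change of PHO84 was -0.43 ± 0.06 (limma's SE, with the variance moderated over all genes tested, 3 arrays per group). This was a 1.35-fold fall, with an adjusted p of 0.00073 in limma. Within scan day 1 (2 arrays against 2) the log2 change was -0.44, and on scan day 2 (1 against 1) it was -0.43.

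Pho89, the sodium-coupled phosphate transporter, works at alkaline pH. The relative signal of PHO89 was 0.373, 0.371 and 0.339 in glycolaldehyde replicates 1 to 3, against 0.465, 0.506 and 0.489 in untreated replicates 1 to 3. The groups did not overlap, and the lowest value was that of glycolaldehyde replicate 3. PHO89 fell by 0.43 ± 0.06, or 1.35-fold (adjusted p = 0.00099 in limma), with log2 changes of -0.38 on scan day 1 and -0.53 on scan day 2.

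Spl2 is a small protein that restrains low-affinity phosphate uptake. SPL2 had a relative signal of 1.38, 1.32 and 1.39 with glycolaldehyde, against 1.75, 1.79 and 1.89 untreated (replicates 1 to 3 in each). All glycolaldehyde arrays were below all untreated arrays, and the values within each group were close together. The gene fell by 0.41 ± 0.06, or 1.32-fold (adjusted p = 0.00075 in limma), and its log2 change was -0.39 on scan day 1 and -0.44 on scan day 2. The 95% intervals of the log2 changes of PHO84 (-0.57 to -0.30), PHO89 (-0.58 to -0.29) and SPL2 (-0.53 to -0.28) overlap widely.

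PHM6, a phosphate-regulated gene of unknown function, had the lowest log2 change of the 10 genes. Its relative signal was 0.173, 0.188 and 0.149 in glycolaldehyde replicates 1 to 3, against 0.379, 0.396 and 0.333 in untreated replicates 1 to 3. No glycolaldehyde array came near an untreated one, and replicate 3 was the lowest of each group. PHM6 fell by 1.12 ± 0.10, or 2.18-fold (adjusted p = 0.00011 in limma). Its 95% interval (-1.36 to -0.89) lies outside those of the other 9 genes, and 1.38% of the genes tested had a lower log2 change. The change was -1.10 on scan day 1 and -1.16 on scan day 2.

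**Figure D2:**
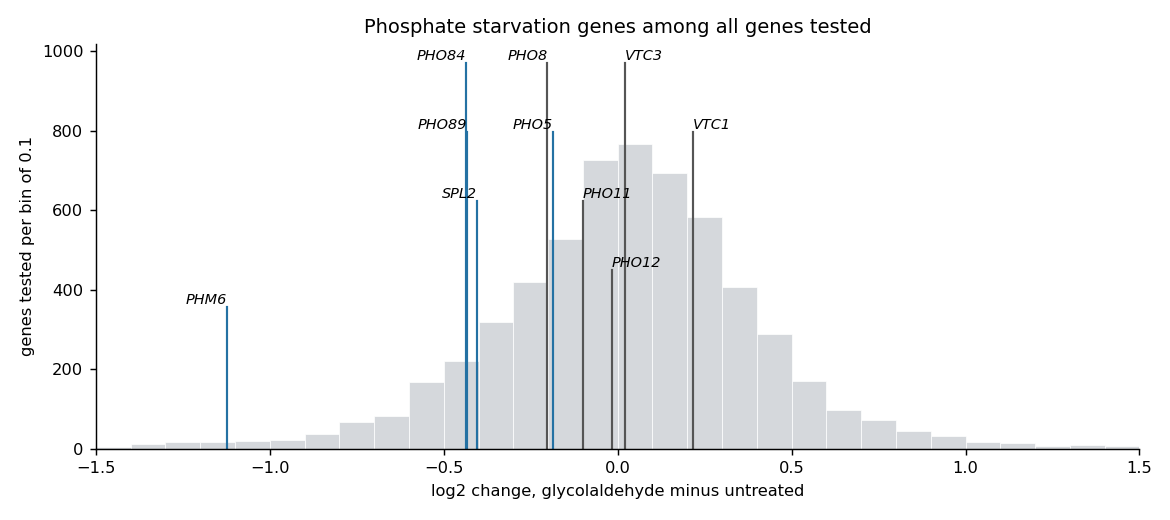
Grey bars count the genes tested in bins of 0.1 of the log2 change, glycolaldehyde minus untreated, and vertical lines mark the phosphate starvation genes (blue, fell; dark grey, not called; line heights carry no meaning). The axis leaves out 65 genes tested that lie beyond 1.5 in size; PHM6 at -1.12 stands in the low tail, while PHO11, PHO12, VTC1 and VTC3 lie within the bulk.

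The secreted acid phosphatases release phosphate from organic esters outside the plasma membrane. PHO5, the main repressible one, had a relative signal of 1.22, 1.31 and 1.30 in glycolaldehyde replicates 1 to 3, against 1.40, 1.51 and 1.45 in untreated replicates 1 to 3. The groups did not overlap, but the gap between the highest glycolaldehyde and the lowest untreated value was narrow. PHO5 fell by 0.19 ± 0.06, or 1.14-fold (adjusted p = 0.027 in limma). This call was lost without glycolaldehyde replicate 1 (adjusted p = 0.11), without glycolaldehyde replicate 2 (0.055) and without untreated replicate 2 (0.10), and on the 4 arrays on which the records agree (0.115). Untreated replicate 2 was also where the 7 spots of PHO5 varied most (coefficient of variation 12.8%).

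PHO11 and PHO12 are near-identical acid phosphatase genes, so their probes may share signal, and no probe sequences were compared. PHO11 had a relative signal of 3.24, 3.27 and 3.25 with glycolaldehyde, against 3.37, 3.65 and 3.45 untreated (replicates 1 to 3). Its groups did not overlap, with a log2 change of -0.10 ± 0.05 (95% interval -0.22 to 0.02; adjusted p = 0.154 in limma). PHO12 had 1.39, 1.44 and 1.42 with glycolaldehyde, against 1.35, 1.44 and 1.51 untreated. Here the groups overlapped, and the log2 change was -0.016 ± 0.059 (95% interval -0.15 to 0.12; adjusted p = 0.842). The intervals leave room for a fall of at most 0.22 for PHO11 and 0.15 for PHO12 on the log2 scale, both smaller than the change of PHO84.

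Pho8 is the repressible alkaline phosphatase of the vacuole. PHO8 had a relative signal of 2.39, 2.34 and 2.43 in glycolaldehyde replicates 1 to 3, against 2.48, 2.54 and 3.27 in untreated replicates 1 to 3. Untreated replicate 3 stood apart from all other arrays, including glycolaldehyde replicate 3 of the same slide and scan day. The log2 change was -0.20 ± 0.10 and did not pass (adjusted p = 0.141 in limma), while with the replicate number as a block the adjusted p was 0.049. Within scan day 1 the change was -0.09, and on scan day 2 it was -0.43. Without untreated replicate 3 it was -0.075.

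The VTC complex polymerises phosphate into polyphosphate and moves it into the vacuole. VTC1, which encodes a small regulatory subunit, had a relative signal of 18.8, 18.3 and 15.3 in glycolaldehyde replicates 1 to 3, against 14.9, 16.1 and 14.0 in untreated replicates 1 to 3. Glycolaldehyde replicate 3 fell below untreated replicate 2, so the groups overlapped, but within each replicate number the glycolaldehyde array was the higher one. The log2 change of VTC1 was 0.22 ± 0.09 (95% interval 0.00061 to 0.43) and did not pass in limma (adjusted p = 0.084). It passed with the replicate number as a block (adjusted p = 0.011) and without glycolaldehyde replicate 3 (log2 change 0.31, adjusted p = 0.013). The change was 0.26 on scan day 1 and 0.13 on scan day 2. VTC3, another subunit, had 1.61, 1.66 and 1.65 with glycolaldehyde, against 1.63, 1.75 and 1.47 untreated. The glycolaldehyde values lay inside the untreated range, and the log2 change was 0.022 ± 0.073 (95% interval -0.15 to 0.19; adjusted p = 0.826).

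Across the 10 genes the groups did not overlap for 7, all with the glycolaldehyde arrays lower: PHO5, PHO8, PHO11, PHO84, PHO89, SPL2 and PHM6. Over all genes tested 27.1% had non-overlapping groups with glycolaldehyde lower, 33.8% with glycolaldehyde higher and 60.9% in either direction. The log2 change was below 0 for 8 of the 10 genes on scan day 1 and for 8 on scan day 2, and for 7 on both days. The median over all genes tested was 0.0439 on scan day 1 and 0.0146 on scan day 2. How many of all genes lay below 0 on each day or on both was not counted. Whether the 10 genes exceed that share was therefore not tested.

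The 4 arrays on which the records agree are glycolaldehyde replicates 2 and 3 and untreated replicates 1 and 2, of which only glycolaldehyde replicate 3 was scanned on day 2. On these arrays 4 of the 10 genes fell and 0 rose, where 22.1% of 5962 genes tested fell and 26.2% rose. These were PHM6 with a log2 change of -1.21 ± 0.12, PHO89 with -0.45 ± 0.08, PHO84 with -0.43 ± 0.07 and SPL2 with -0.38 ± 0.07, with adjusted p between 0.00079 and 0.0062 in limma. PHO8 had a log2 change of -0.076 and VTC1 one of 0.11 (adjusted p = 0.372 and 0.399), both smaller than on all 6 arrays. With the scanner files as attached to the samples, limma called 0 of the 10 genes and 0 of 5924 genes tested (0%; smallest adjusted p = 0.919). At an unadjusted p under 0.05 limma gave 0 of the 10 genes in that grouping and 134 genes in all. There PHM6 had a log2 change of -0.49 ± 0.42, PHO84 one of -0.14 ± 0.18, PHO89 one of -0.17 ± 0.18 and SPL2 one of -0.11 ± 0.17. Which record is right, and whether titles or descriptions give the treatment, was not tested.

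**Figure D3:**
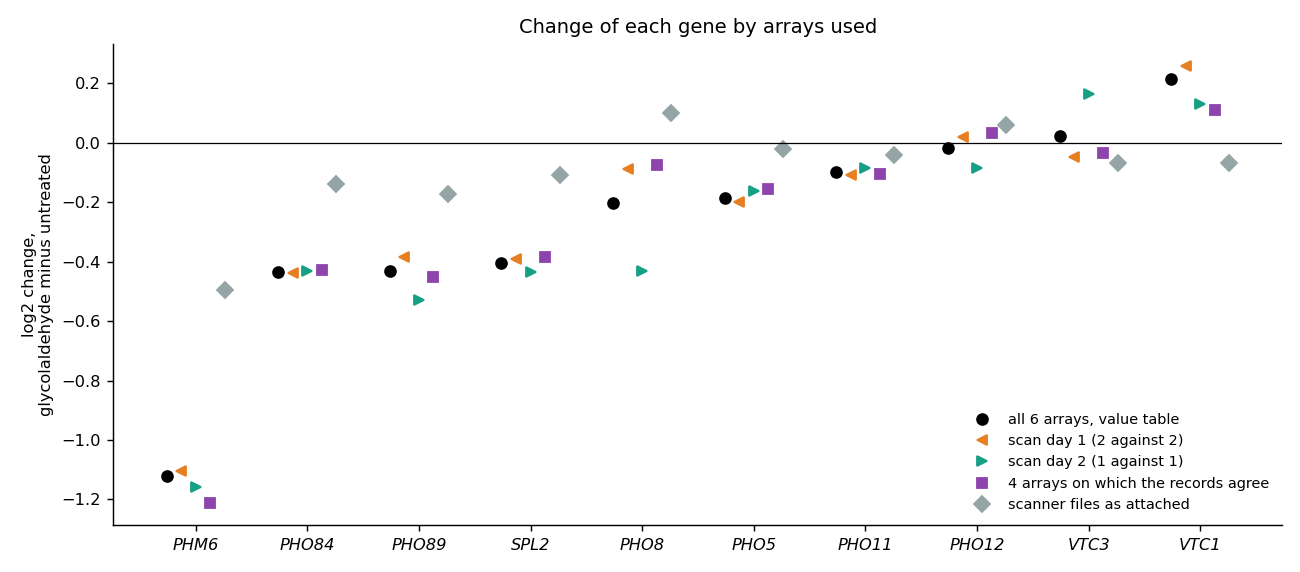
Log2 change of each phosphate starvation gene, glycolaldehyde minus untreated, by the arrays used: all 6 arrays by the value table (black circles), scan day 1 (orange), scan day 2 (green), the 4 arrays on which the records agree (purple squares) and the scanner files as attached (grey diamonds). PHM6, PHO84, PHO89 and SPL2 stay well below 0 in the first 4 sets and move towards 0 in the last, where PHM6 is at -0.49.

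The other genes of phosphate signalling, transport and storage, 28 in a list of the pathway, were all measured. Of these 7 rose and 5 fell, beside 29.6% and 23.5% of all genes tested, and 16 were not called. Their median log2 change was 0.030. With the replicate number as a block 11 rose and 8 fell, where 36.6% and 29.1% of all genes did. On the 4 arrays on which the records agree 7 rose and 4 fell (26.2% and 22.1% of all genes), PHO91 being the one no longer called (log2 change -0.19, adjusted p = 0.114). With the scanner files as attached 0 were called, and log2 changes lay between -0.46 (PHO4) and 0.43 (PHO92). Among the 9 genes of signalling and regulation 2 rose and 1 fell. PHO4, the transcription factor of the regulon, had a relative signal of 0.0260, 0.0236 and 0.0220 in glycolaldehyde replicates 1 to 3, against 0.0433, 0.0473 and 0.0392 in untreated replicates 1 to 3. The groups were well apart, and PHO4 fell by 0.86 ± 0.09, or 1.81-fold (adjusted p = 0.00021 in limma). PHO2, the partner of Pho4, did not pass (0.019 ± 0.12, 95% interval -0.25 to 0.29).

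Of the kinase module, PHO85 rose by 0.19 ± 0.06 (adjusted p = 0.039 in limma), a call that was lost on leaving out any 1 of 5 samples. Its adjusted p was 0.086, 0.074 and 0.089 without glycolaldehyde replicate 1, 2 or 3, and 0.142 and 0.109 without untreated replicate 1 or 2; with arrays scaled to the median it was 0.090. PHO80, the cyclin, had a log2 change of 0.15 ± 0.07 and PHO81, the inhibitor, one of -0.15 ± 0.06. Neither passed (adjusted p = 0.109 and 0.075). Both passed with the replicate number as a block (adjusted p = 0.034 and 0.022) and with scan day as a block (0.020 and 0.016). With slide as a block PHO81 passed (0.026) and PHO80 did not (0.083). Neither passed with scan day as a block after replicates 1 and 2 were averaged (0.054 and 0.087). PHO92, which encodes a YTH-domain protein that binds mRNA, had a relative signal of 0.0522, 0.0473 and 0.0525 with glycolaldehyde, against 0.0271, 0.0264 and 0.0371 untreated. Every glycolaldehyde array was above every untreated one, and PHO92 rose by 0.76 ± 0.13 (adjusted p = 0.0019). Its log2 change was 0.90 on scan day 1 and 0.50 on scan day 2.

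Of the 7 other transport genes 3 rose and 2 fell, beside 29.6% and 23.5% of all genes tested. GIT1, the permease for glycerophosphodiesters such as glycerophosphoinositol, had a relative signal of 0.0259, 0.0265 and 0.0231 with glycolaldehyde, against 0.0143, 0.0143 and 0.0127 untreated. The groups did not overlap, and GIT1 rose by 0.87 ± 0.08, or 1.83-fold (adjusted p = 9.8e-05 in limma). GIT1, PHO4 and PHO92 were all dim. With normexp background correction and quantile normalization their log2 changes were 0.60, -0.70 and 0.58. These were smaller in size than in the main fit, and each still passed. PHO88, an endoplasmic reticulum protein also named SND3, rose by 0.50 ± 0.06 (adjusted p = 0.00044). PHO86, which Pho84 needs to leave the endoplasmic reticulum, rose by 0.21 ± 0.06 (adjusted p = 0.015), a call lost without glycolaldehyde replicate 1, untreated replicate 1 or untreated replicate 2 (adjusted p = 0.068, 0.066 and 0.050). The log2 change of PHO86 was 0.26 on scan day 1 and 0.12 on scan day 2. SYG1, an SPX-domain membrane protein, had a relative signal of 0.782, 0.793 and 0.815 with glycolaldehyde, against 1.17, 1.27 and 1.15 untreated, and fell by 0.59 ± 0.06 (adjusted p = 0.00019). The vacuolar transporter gene PHO91 fell by 0.22 ± 0.07 (adjusted p = 0.027). The low-affinity transporter genes PHO87 and PHO90 had log2 changes of -0.17 ± 0.09 and -0.07 ± 0.05 and did not pass, while PHO87 did with the replicate number as a block (adjusted p = 0.042).

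Among the 6 other genes of polyphosphate metabolism 0 rose and 1 fell in limma (29.6% and 23.5% of all genes tested). At an unadjusted p under 0.05 limma gave 3 of them, beside 3516 of all 5944 genes tested. The one that fell was VTC5, an SPX-domain subunit that stimulates the VTC complex. It had a relative signal of 0.393, 0.410 and 0.401 in glycolaldehyde replicates 1 to 3, against 0.852, 0.915 and 0.835 in untreated replicates 1 to 3. Every glycolaldehyde value lay far below every untreated value, and VTC5 fell by 1.11 ± 0.06, or 2.16-fold (adjusted p = 8.3e-06 in limma). VTC4, the catalytic subunit, had a log2 change of 0.13 ± 0.05 (adjusted p = 0.069, and 0.042 with the replicate number as a block). The adjusted p of VTC4 was also 0.026 with scan day as a block and 0.026 with quantile normalization. With slide as a block it was 0.103, and with scan day as a block after replicates 1 and 2 were averaged it was 0.144. The other, dimmer probe of VTC4 gave a log2 change of 0.017. VTC2 had a log2 change of 0.07 ± 0.05 (adjusted p = 0.299). The polyphosphatase genes PPX1, PPN1 and PPN2 did not pass, with log2 changes of 0.19, 0.20 and -0.08. With the replicate number as a block PPX1 and PPN1 passed (adjusted p = 0.0086 and 0.025).

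Of the 6 remaining phosphatases and targets 2 rose and 1 fell, where 53.1% of all genes tested changed in either direction. GDE1, which splits glycerophosphocholine inside the cell, had a relative signal of 0.516, 0.550 and 0.496 with glycolaldehyde, against 0.375, 0.372 and 0.326 untreated, and rose by 0.54 ± 0.07 (adjusted p = 0.00072 in limma). PHM7, a membrane protein gene, rose by 0.43 ± 0.08 (adjusted p = 0.0037). PHM8, a phosphatase gene, fell by 0.32 ± 0.09 (adjusted p = 0.022). That call was lost without glycolaldehyde replicate 1 or 3 (adjusted p = 0.057 and 0.056) and without untreated replicate 1 or 2 (0.074 and 0.077). The call of PHO91 was lost without glycolaldehyde replicate 1 or 2 (adjusted p = 0.073 and 0.101) and without untreated replicate 2 or 3 (0.087 and 0.056), and on the 4 arrays on which the records agree (0.114). Without glycolaldehyde replicate 1 or without untreated replicate 2, 3 of the list fell. PHO3, the constitutive acid phosphatase gene beside PHO5 on the chromosome, had a log2 change of 0.04 ± 0.05 and did not pass (adjusted p = 0.558), and its difference from PHO5 was not tested. PHO86, PHO91, PHM7, PHM8, PHO3, PHO87, PHO90 and the polyphosphatases are named with the whole list in view, after their values were seen.

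**Figure D4:**
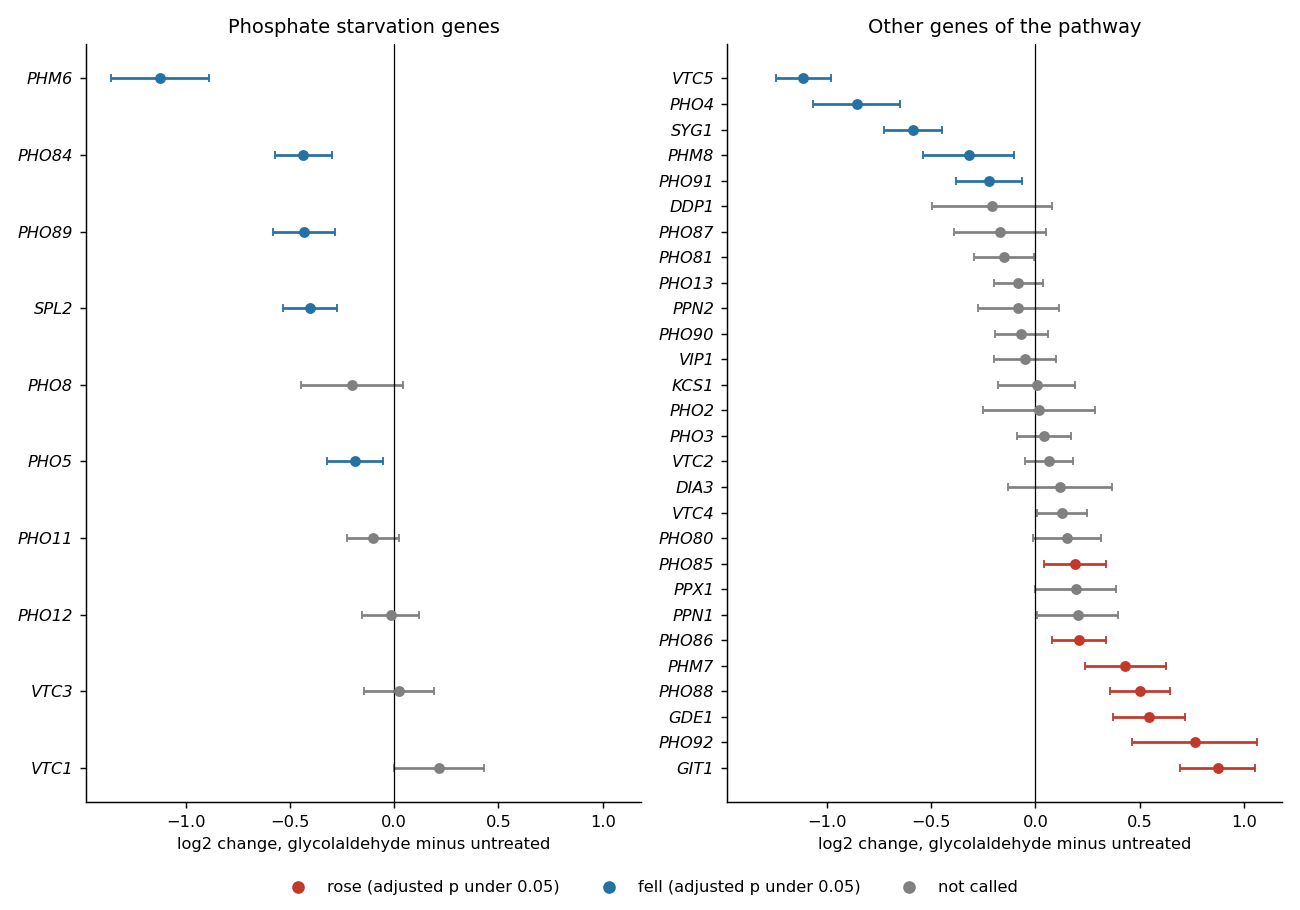
Log2 change, glycolaldehyde minus untreated, with the 95% interval of limma for the 10 phosphate starvation genes (left) and the 28 other genes of the pathway (right), from 3 arrays per group. Red genes rose and blue genes fell at an adjusted p under 0.05. PHM6, VTC5 and PHO4 lie farthest to the left and GIT1 and PHO92 farthest to the right. The signals of PHO4, GIT1 and PHO92 were dim.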

How the data were processed

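The authors' scanner files hold 7 spots for each of 6256 probes, read by Agilent Feature Extraction (version 11.0.1.1) into a green intensity after background subtraction and detrending, per the file headers. The deposited value table holds an intensity, the plain mean of those 7 spots on 1 array (relative tolerance 1e-06), with column medians of 3307, 3373 and 5055 for glycolaldehyde replicates 1 to 3 and 3545, 3346 and 4612 for untreated replicates 1 to 3. It is linear and uncentred, and 0 of its columns were without a sample. The submitters' processing notes also list R 3.0.2. The RNA input was 200 ng, labelled with Cy3, per the labels' protocols.

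Here log2 of the value minus the array's 75th percentile was fitted on treatment alone (limma 3.58.1 in R 4.3.3; lmFit, eBayes, two-sided tests), with Benjamini-Hochberg adjustment over all genes. A probe was tested when over 0.5 of its spots were flagged well above background on all 3 arrays of a group, per the file headers; 0 spots were saturated. The brightest of several probes was kept (29 genes). The fit was tested on simulated data. Same-numbered samples deviated together (correlations 0.321, 0.401 and 0.621, each above 0.1). Same-numbered samples share a scan day, and replicates 2 and 3 each also share a slide. Correlations between samples of different numbers were not computed, so pairing by number was not tested. The replicate block is therefore given only beside the main fit. The 10 genes and the pathway list were chosen with earlier results of these data known. Named pathway genes were PHO4, PHO2, PHO80, PHO81, PHO85, VTC2, VTC4 and any other called with a log2 change of at least 0.5 in size. Gene names come from a RefSeq table of another build than the array's, so no positions are given, and planned comparisons of promoter and protein sequences were not made.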

Additional observations from a re-analysis of the deposited data

How the results depend on the processing

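PHM6, PHO84, PHO89 and SPL2 kept their direction in all 21 alternatives and passed in all 19 with a test other than the scanner files as attached. These 19 include the fit with replicates 1 and 2 averaged, whose limit is given below. The scanner files as attached ended every call: 0 of the 10 genes, 0 of the other pathway genes and 0 of all genes rose or fell. With quantile normalization, normexp on the median spot signal (added after seeing the data, as the files hold no mean spot signal), the replicate block, scan day or slide as a block, within scan day 1, or with scan day as a block after replicates 1 and 2 were averaged, 1 of the 10 genes rose, VTC1. With the replicate block, scan day or slide as a block, or the averaged fit, 6 fell, PHO8 being added (adjusted p = 0.049, 0.032, 0.037 and 0.0048). More of all genes were called in some of these fits too. With the replicate block 36.6% of all genes rose and 29.1% fell. Within scan day 1, 2377 of 5952 genes rose and 1790 fell, against 1761 and 1397 of 5944 in the main fit. For the remaining fits the share over all genes is not given here. The averaged fit leaves 1 residual degree of freedom. Across the named genes its adjusted p followed the size of the change alone, so it does not measure a gene's own spread. In the other pathway list 11 rose and 8 fell with the replicate block (36.6% and 29.1% of all genes) and with scan day as a block. Without each sample in turn 4 to 5 of the 10 genes fell and 0 to 1 rose, and 3 to 4 of the other pathway genes fell and 5 to 8 rose; over all genes 1121 to 1495 fell and 1363 to 1883 rose. The replicate block changed no other call of a named gene than those given above. Leaving aside the files as attached, adjusted p ranged from 0.0090 to 0.115 for PHO5, 0.0048 to 0.372 for PHO8, 0.0042 to 0.399 for VTC1, 0.020 to 0.398 for PHO80, 0.016 to 0.347 for PHO81, 0.0039 to 0.142 for PHO85 and 0.026 to 0.285 for VTC4. Only genes that did not pass changed sign, and the cause was not tested. PHO12 had 0.019 within scan day 1, 0.032 on the agreed arrays, -0.057 to 0.021 without each sample in turn (above 0 without untreated replicate 3) and 0.059 with the files as attached, where PHO8 had 0.10, VTC1 -0.068, VTC3 -0.068, PHO80 -0.046 and PHO81 0.036. VTC3 had -0.0068 scaled to the median, -0.0066 with quantile normalization, -0.049 within scan day 1, -0.035 on the agreed arrays and -0.046 to 0.082 without each sample in turn (below 0 without untreated replicate 3). PHO2 had -0.010 scaled to the median, -0.0027 with normexp, -0.0033 within scan day 1, and -0.088 to 0.11 without each sample in turn (below 0 without glycolaldehyde replicate 3 and without untreated replicates 1 and 2).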

Other observations

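The SPX domain binds inositol pyrophosphates and occurs in proteins of phosphate sensing, transport and storage. Of 10 yeast genes for such proteins, grouped after their values were seen and so given as a description, 1 rose, 3 fell and 6 did not pass in limma, where 29.6% of all genes tested rose and 23.5% fell. GDE1 rose by 0.54 ± 0.07, VTC5 fell by 1.11 ± 0.06, SYG1 fell by 0.59 ± 0.06 and PHO91 fell by 0.22 ± 0.07 on the log2 scale. PHO81, PHO87, PHO90, VTC2, VTC3 and VTC4 had log2 changes between -0.17 (PHO87) and 0.13 (VTC4). The subunits of the polyphosphate polymerase complex ranged from -1.11 for VTC5 to 0.22 for VTC1.

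The protein-coding genes directly beside the 10 phosphate starvation genes on the chromosomes numbered 19, of which 17 were tested. Of these 5 rose, 6 fell and 6 did not pass (64.7% called, beside 53.1% of all genes tested), with log2 changes between -0.58 and 0.41. None of them reached the size of the change of PHM6. CTF19 beside VTC3 (-0.58) and ALD5 beside VTC1 (-0.47) changed by more than PHO84 (-0.43), PHO89 (-0.43), SPL2 (-0.41) and PHO5 (-0.19). The other tested neighbours changed by less than PHO84 and PHO89 did. These differences were not tested.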
